A study of Homo sapiens with 16 samples.

Results

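The response of IMR5-75 cells to the EZH2 inhibitor EPZ-6438 was set against the response of Be(2)-C cells, gene by gene. The quantity is a difference of 2 changes on the log2 scale: the change of EPZ-6438 over DMSO in IMR5-75, minus the same change in Be(2)-C. A positive value means that IMR5-75 moved up relative to Be(2)-C. It used 8 of the 16 libraries of the series, those without the second agent DAC, and covered the 15967 of 23459 genes that passed a filter on low counts.

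Both are human neuroblastoma lines with amplified MYCN, from a tumour of the developing sympathetic nervous system. The 4 groups of 2 libraries each were IMR5-75 given 1 µM EPZ-6438 for 96 h, IMR5-75 given the solvent DMSO, Be(2)-C given EPZ-6438 at the same dose and time, and Be(2)-C given DMSO. All cells grew in RPMI medium with fetal calf serum. In the other 8 libraries each line had received DAC at 1 µM for 72 h, with or without EPZ-6438; DAC, not spelled out in the labels, usually stands for decitabine, an inhibitor of DNA methylation. Each line is a single cell line. The labels leave unsaid whether a group's libraries stem from separate cultures. All p-values rest on the spread between the 2 libraries of a group, which could be technical. In the main fit this spread was pooled over all 8 groups of line and treatment, the DAC groups included.

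EPZ-6438 (tazemetostat) blocks EZH2, the enzyme subunit of Polycomb repressive complex 2 (PRC2), which places a repressive methyl mark on histone H3. Which genes rise on EZH2 inhibition depends on which genes carry that mark, and in neuroblastoma EZH2 is known for silencing neuronal and tumour suppressor genes such as CASZ1, NGFR and CLU. E2F factors and the DREAM complex control the genes of DNA replication and mitosis, whose RNA falls when cells leave the cell cycle.

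The 8 libraries held 11051893 to 14032155 counts. Levels are CPM, counts scaled to library size with TMM factors, and 3 counts, taken as the floor, correspond to 0.214 to 0.271 CPM. The 14 neuroblastoma markers summed to 3006 to 3209 CPM in the IMR5-75 EPZ-6438 libraries and 3483 to 3898 CPM in the IMR5-75 DMSO libraries. They summed to 10675 to 12760 CPM in the Be(2)-C EPZ-6438 libraries and 11905 to 12074 CPM in the Be(2)-C DMSO libraries. HAND2 and ISL1, transcription factors of sympathetic neuroblasts, were present in all 8, while STMN2, a neuronal tubulin regulator, had 10 counts in the IMR5-75 EPZ-6438 group, 0 counts in the IMR5-75 DMSO group and a mean of 1213 CPM in Be(2)-C given EPZ-6438. Of other cell types, the 24 haematopoietic markers summed to 5.92 to 9.14 CPM in any library, with HBB at 0 in every group. The 21 Schwann and glial markers summed to 38.0 to 44.5 CPM with EPZ-6438 and 33.6 to 39.2 CPM with DMSO in IMR5-75, and to 344 to 356 CPM with EPZ-6438 and 398 to 406 CPM with DMSO in Be(2)-C. The 19 endothelial and fibroblast markers summed to 270 to 279 CPM with EPZ-6438 and 222 CPM with DMSO in IMR5-75, and to 236 to 242 CPM with EPZ-6438 and 279 to 282 CPM with DMSO in Be(2)-C. The 32 epithelial markers summed to 36.1 to 39.4 CPM with EPZ-6438 and 21.2 to 25.1 CPM with DMSO in IMR5-75, and to 52.9 to 77.1 CPM with EPZ-6438 and 45.8 to 47.6 CPM with DMSO in Be(2)-C. The part of these markers in the results was not tested.

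The lines differed in their response at 205 genes, which is 1.28% of those tested. The difference was higher at 95 genes (0.595%) and lower at 110 (0.689%), by edgeR's quasi-likelihood test with a Benjamini-Hochberg adjusted p below 0.05. At an unadjusted p under 0.05 there were 1850 (11.6%). Within the lines, 335 genes (2.1%) were called in IMR5-75 and 1642 (10.3%) in Be(2)-C. In IMR5-75, 276 rose (1.73%) and 59 fell (0.37%). Among the Be(2)-C calls, 868 rose (5.44%) and 774 fell (4.85%). A fit on the 8 libraries alone called 241 differences, 139 higher and 102 lower. Leaving out 1 library at a time, the IMR5-75 count was as low as 33, without IMR5-75 DMSO replicate 2, and the Be(2)-C count as low as 573, without Be(2)-C DMSO replicate 1.

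The called genes fell into 3 main groups by the arm that moved. Of the 110 lower genes, 100 rose in Be(2)-C while their change in IMR5-75 was not called. Of the 95 higher genes, 52 fell in Be(2)-C and 38 rose in IMR5-75, in each case with no call in the other line. SEL1L3 and CHODL rose in both lines, less in IMR5-75. VEGFA and PFKFB3 were the only called genes to move in opposite directions with a call in each line, falling in IMR5-75 and rising in Be(2)-C. In fits that left out each of the 8 libraries in turn, 30 of the 205 genes kept the call every time, 11 higher and 19 lower, and all 205 kept their sign. The number called was 56 to 222 in these fits: 56 without either Be(2)-C DMSO library, 65 without IMR5-75 EPZ-6438 replicate 1, 98 without IMR5-75 DMSO replicate 2 and 110 without IMR5-75 EPZ-6438 replicate 2.

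**Figure D1:**
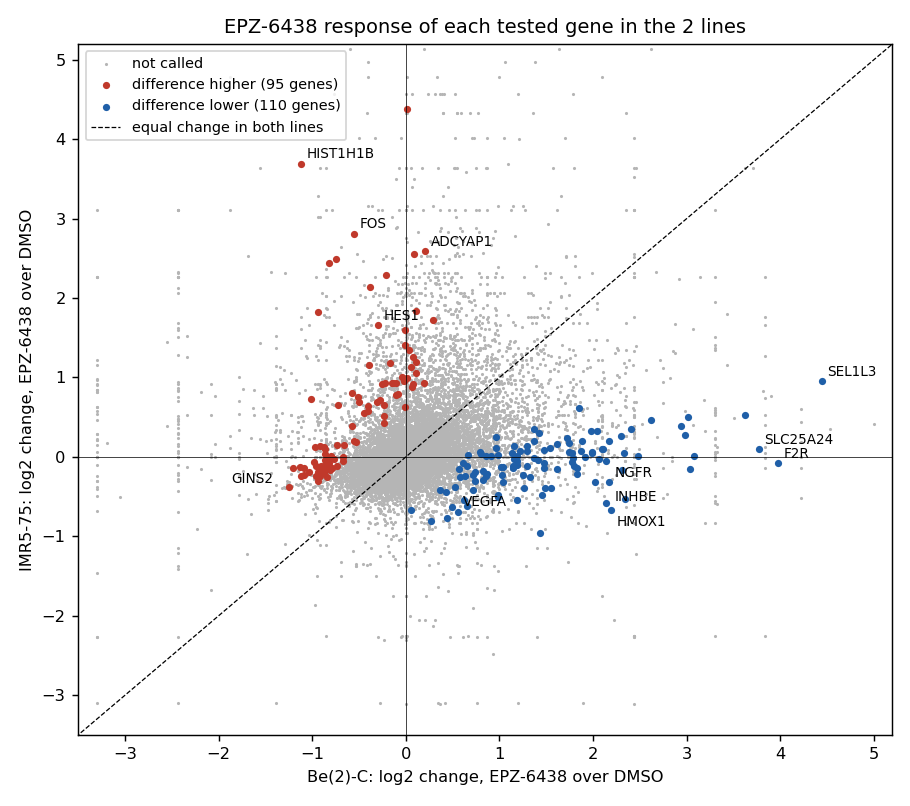
Log2 change under EPZ-6438 in IMR5-75 (vertical axis) against the log2 change in Be(2)-C (horizontal axis) for each tested gene, with the 95 genes whose difference was higher in red and the 110 lower in blue; 56 genes, none of them called, lie outside the axes. Blue points run along the horizontal axis to the right, since 100 of the 110 rose in Be(2)-C without a call in IMR5-75. Of the red points, 52 genes fell in Be(2)-C without a call in IMR5-75, and 38 rose in IMR5-75 without a call in Be(2)-C. The remaining 5 were called in neither line. HIST1H1B, among the 52, stands at 3.69 in IMR5-75, a change that was not called.

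The targeted enzyme was present in every library. EZH2 RNA stood at 171 and 170 CPM in the IMR5-75 EPZ-6438 libraries, against 190 and 189 CPM with DMSO. In Be(2)-C it was 62.7 and 69.1 CPM with EPZ-6438, against 99.0 and 97.4 CPM with DMSO. EPZ-6438 libraries lay below DMSO libraries in both lines, and the fall was called in Be(2)-C (log2 change −0.57 ± 0.11 SE, adjusted p = 0.0013 by edgeR) but not in IMR5-75 (−0.15 ± 0.10, adjusted p = 0.498). The difference itself, 0.42, had a 95% interval of 0.11 to 0.73 and was not called (adjusted p = 0.218 by edgeR). EPZ-6438 inhibits the enzyme's activity, so its RNA level is no check of the treatment.

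None of the 13 PRC2 genes and none of the 22 genes of PRC1 and the H3K27 demethylases was called by edgeR. Of all tested genes 1.28% were called, so the lack of a call in lists this short says little about their members. At an unadjusted p under 0.05 there were 4 and 3, where the share over all tested genes was 11.6%. The DESeq2 Wald test called 2, the PRC2 partners PHF19 and JARID2. EED, which binds the methyl mark, had a difference of 0.29 (95% interval −0.11 to 0.69). SUZ12, the scaffold of the complex, had −0.02 (−0.42 to 0.37), a sign that turned in 5 alternative settings, and EZH1, the other catalytic subunit, had 0.16 (−0.21 to 0.53). MYCN, the amplified oncogene, was at 1549 and 1420 CPM with EPZ-6438 against 1743 and 2000 CPM with DMSO in IMR5-75. Be(2)-C cells had 4705 and 3209 CPM with EPZ-6438 against 5282 and 5196 CPM with DMSO. Its difference was 0.07 (−0.34 to 0.48), which was −0.18 without Be(2)-C EPZ-6438 replicate 2.

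Of the 5 tested genes on a list of 6 neuroblastoma suppressors repressed by EZH2, 1 differed between the lines: NGFR, the p75 neurotrophin receptor. Over all tested genes 1.28% were called. NGFR stood at 3.23 and 2.52 CPM in the IMR5-75 EPZ-6438 libraries and 1.77 and 5.55 CPM in the IMR5-75 DMSO libraries. It was at 8.17 and 8.33 CPM in Be(2)-C with EPZ-6438, against 1.99 and 1.65 CPM with DMSO. The IMR5-75 groups overlapped and the Be(2)-C groups lay well apart. The difference was −2.49 ± 0.51 (adjusted p = 0.0139 by edgeR), and the call was lost without either Be(2)-C DMSO library, without IMR5-75 EPZ-6438 replicate 2 or without IMR5-75 DMSO replicate 2, when the value was −1.47.

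Other suppressors on the list were not called. CASZ1, a zinc finger transcription factor, changed by 0.69 in IMR5-75 and 0.54 in Be(2)-C, a difference of 0.15 (−0.62 to 0.92) that was −0.23 without Be(2)-C EPZ-6438 replicate 2. CLU, the chaperone clusterin, had a difference of 0.55 (0.08 to 1.03), and CDKN1C, the cell-cycle inhibitor p57, one of 0.86 (−0.83 to 2.55). RUNX3 had 0 to 2 counts per library and was not tested. CDKN1A, the cell-cycle inhibitor p21, rose in IMR5-75 (0.82 ± 0.14, adjusted p = 0.00347 by edgeR) and not in Be(2)-C (0.08 ± 0.20), but its difference of 0.73 (0.22 to 1.25) was not called (adjusted p = 0.181).

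Genes of the cell cycle fell further in Be(2)-C than in IMR5-75. Of 61 DNA replication genes, 10 were called higher in the difference and 0 lower. Of 62 mitosis genes, 9 were called higher and 0 lower, where 0.595% of all tested genes were called higher. The median difference was 0.47 over the replication list and 0.52 over the mitosis list, against 0.01 over all tested genes. It was above 0 for 58 of 61 and for 61 of 62 members.

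Within the lines, 51 replication genes and 54 mitosis genes fell in Be(2)-C, with median changes of −0.72 and −0.68. Of all tested genes 4.85% fell in Be(2)-C and 0.37% in IMR5-75. In IMR5-75, 6 replication genes and 0 mitosis genes fell, with medians of −0.21 and −0.14. The core histones, whose genes are near-identical and can exchange reads, had 49 of 57 members falling in Be(2)-C and 0 in IMR5-75. Their median difference was 0.71, and only HIST1H2AB was called. Fewer cells of a type and less RNA per cell cannot be told apart in these bulk libraries.

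GINS2, a subunit of the replicative helicase, stood for the replication genes. It was at 34.4 and 32.5 CPM with EPZ-6438 against 33.6 and 40.5 CPM with DMSO in IMR5-75. In Be(2)-C it was at 48.5 and 45.5 CPM with EPZ-6438, against 104 and 114 CPM with DMSO. The IMR5-75 libraries overlapped and the Be(2)-C groups did not. The difference was 1.06 ± 0.18 (adjusted p = 0.00263 by edgeR), from a Be(2)-C change of −1.21 ± 0.12, and the call held without each library in turn.

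PCNA, the sliding clamp of the DNA polymerases, was at 222 and 217 CPM with EPZ-6438 against 243 and 231 CPM with DMSO in IMR5-75. Levels in Be(2)-C were 150 and 171 CPM with EPZ-6438, against 319 and 306 CPM with DMSO. The difference was 0.85 ± 0.16 (adjusted p = 0.00626 by edgeR), a call lost without Be(2)-C DMSO replicate 1. LIG1, the ligase that joins Okazaki fragments, differed by 0.82 ± 0.17 (adjusted p = 0.016), a call lost without either Be(2)-C DMSO library or IMR5-75 EPZ-6438 replicate 1.

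CCNA2, cyclin A2, was at 205 and 214 CPM with EPZ-6438 against 220 and 219 CPM with DMSO in IMR5-75. The Be(2)-C libraries had 142 and 165 CPM with EPZ-6438 against 297 and 311 CPM with DMSO. Its difference was 0.92 ± 0.17 (adjusted p = 0.00607 by edgeR), a call lost without Be(2)-C DMSO replicate 2. NUSAP1, a spindle protein, differed by 0.84 ± 0.16 (adjusted p = 0.00942) and BIRC5, survivin of the chromosomal passenger complex, by 0.74 ± 0.16 (adjusted p = 0.0172). NUSAP1 lost the call without either Be(2)-C DMSO library or IMR5-75 EPZ-6438 replicate 2, and BIRC5 in 5 of the 8 fits.

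These counts of called genes depended on single libraries. Of the replication genes, 1 was called without Be(2)-C DMSO replicate 1, 2 without replicate 2, 3 without either IMR5-75 EPZ-6438 library and 5 without IMR5-75 DMSO replicate 2. Of the mitosis genes, 0 were called without Be(2)-C DMSO replicate 2, 1 without replicate 1, 2 or 3 without either IMR5-75 EPZ-6438 library, 4 without IMR5-75 DMSO replicate 1 and 16 without Be(2)-C EPZ-6438 replicate 2. Over the same fits the median difference stayed between 0.40 and 0.51 for replication and between 0.45 and 0.61 for mitosis.

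Of the 19 called replication and mitosis genes, 17 had a promoter in the RefSeq table of build GRCh38.p14. The 250 bases before the start were searched on both strands for the E2F words TTTGGCGC, TTTCCCGC, TTTGCCGC and TTTCGCGC, the CCAAT box (CCAAT) and the cell-cycle homology region (TTTGAA), which share no overlap in the windows shown. An E2F word stood in 4 of the 17, a CCAAT box in 12 and TTTGAA in 1. Among all 27305 promoters of the table these shares were 2.79%, 33.0% and 13.6%. Only exact words were counted, so variants of these sites are not covered. The windows of GINS2 (chr16:85688955-85689204, minus strand), PCNA (chr20:5126623-5126872, minus strand), CCNA2 (chr4:121823884-121824133, minus strand) and CCNB2, cyclin B2 (chr15:59104896-59105145, plus strand), are given to show genes that moved together, with the matched words of either strand in capitals.
GINS2: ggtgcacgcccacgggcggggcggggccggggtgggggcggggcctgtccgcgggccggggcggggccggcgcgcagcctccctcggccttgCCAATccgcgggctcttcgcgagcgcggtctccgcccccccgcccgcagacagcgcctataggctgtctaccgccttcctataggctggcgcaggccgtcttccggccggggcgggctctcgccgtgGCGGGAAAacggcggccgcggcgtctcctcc
PCNA: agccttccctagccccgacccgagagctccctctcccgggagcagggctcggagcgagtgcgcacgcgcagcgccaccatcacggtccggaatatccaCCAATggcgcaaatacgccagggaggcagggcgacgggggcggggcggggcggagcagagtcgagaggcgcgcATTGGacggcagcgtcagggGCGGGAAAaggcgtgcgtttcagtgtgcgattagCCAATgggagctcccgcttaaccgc
CCNA2: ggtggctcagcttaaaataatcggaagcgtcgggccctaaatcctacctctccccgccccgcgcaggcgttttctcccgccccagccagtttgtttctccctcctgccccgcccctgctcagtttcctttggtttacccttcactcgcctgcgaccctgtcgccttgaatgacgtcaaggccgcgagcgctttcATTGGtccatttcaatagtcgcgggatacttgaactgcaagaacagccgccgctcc
CCNB2: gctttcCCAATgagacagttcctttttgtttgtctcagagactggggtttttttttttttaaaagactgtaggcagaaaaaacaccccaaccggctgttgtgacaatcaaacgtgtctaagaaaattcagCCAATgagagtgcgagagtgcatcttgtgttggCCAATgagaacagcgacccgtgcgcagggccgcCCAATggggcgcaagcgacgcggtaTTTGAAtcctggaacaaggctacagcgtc
GINS2 held 1 E2F word, written on the opposite strand as GCGGGAAA, which also stood in PCNA. CCNB2 held 4 CCAAT boxes and 1 TTTGAA.

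**Figure D2:**
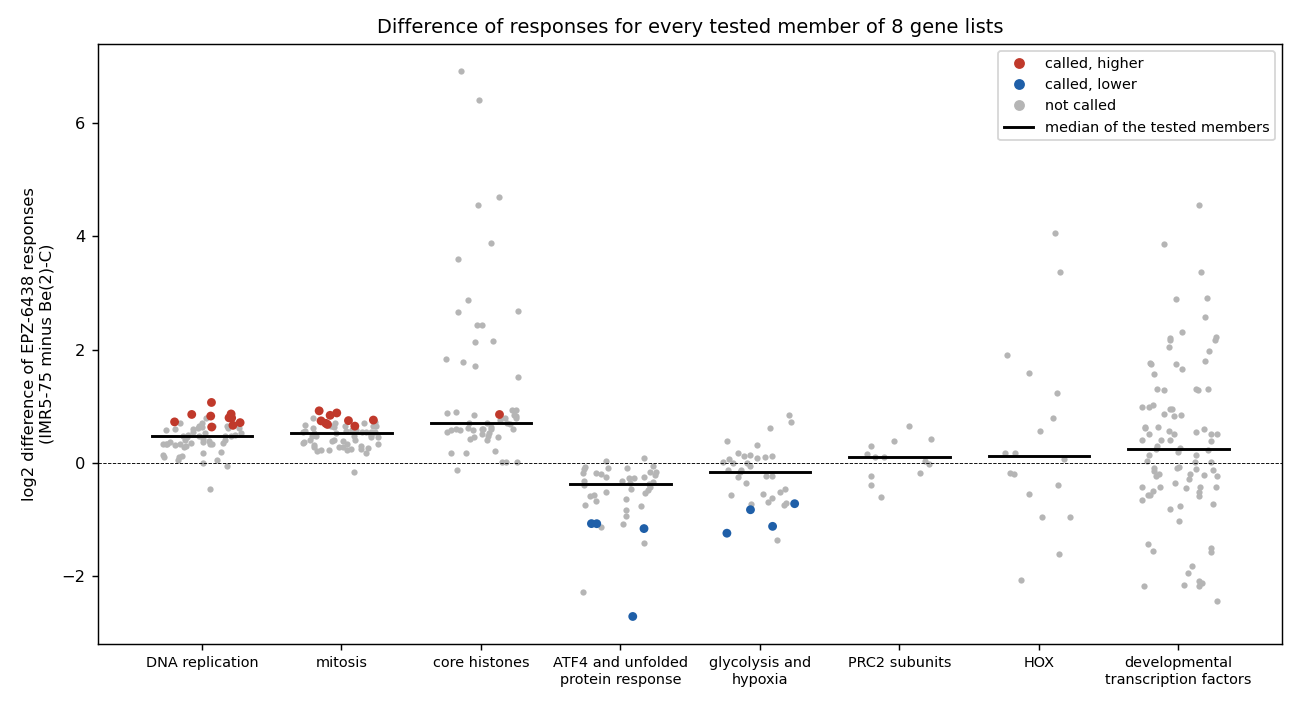
Log2 difference of the EPZ-6438 responses, IMR5-75 minus Be(2)-C, for every tested member of 8 gene lists; each point is a gene, coloured where called, and the bar is the median of the tested members. Replication and mitosis genes lie almost wholly above 0, with medians of 0.47 and 0.52, ATF4 and unfolded protein response genes almost wholly below 0, with a median of −0.38, and HOX and developmental genes scatter on both sides with no call.

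The largest group, 100 genes, rose under EPZ-6438 in Be(2)-C with no call in IMR5-75, where their median level was higher. Their median level was 35.8 CPM with EPZ-6438 and 38.7 CPM with DMSO in IMR5-75. It was 11 CPM with EPZ-6438 and 3.63 CPM with DMSO in Be(2)-C. The DMSO libraries enter the difference, so the line difference was also counted in the 8 DAC libraries. There every Be(2)-C library lay below every IMR5-75 library for 83 of the 110 lower genes (75.5%), against 33.7% of all tested genes. Every Be(2)-C library lay above for 46 of the 95 higher genes (48.4%), against 31.8% of all.

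SLC25A24, a mitochondrial carrier of ATP and phosphate, stood at 174 and 198 CPM in the IMR5-75 EPZ-6438 libraries and 177 and 171 CPM in the IMR5-75 DMSO libraries. Be(2)-C cells had 3.36 and 5.65 CPM with EPZ-6438, against 0.634 and 0 CPM with DMSO. The IMR5-75 groups overlapped and the Be(2)-C groups did not. The difference was −3.68 ± 0.53 (adjusted p = 0.0011 by edgeR), and the call held in each of the 8 fits, with a value of −8.69 without Be(2)-C DMSO replicate 1, which leaves the library with 0 counts.

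F2R, the thrombin receptor PAR1, behaved alike at a lower level. It was at 80.7 and 85.2 CPM with EPZ-6438 against 93.4 and 81.8 CPM with DMSO in IMR5-75. It had, in Be(2)-C, 19 counts over the EPZ-6438 group against 1 count over the DMSO group, a ratio of 19.1 with a counting interval of 3.03 to 793. Its fitted difference of −4.06 ± 0.79 (adjusted p = 0.0101 by edgeR) lost the call without Be(2)-C DMSO replicate 1 and was −6.50 without replicate 2.

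SEL1L3 stood at 7.65 and 9.68 CPM with EPZ-6438 against 4.64 and 4.29 CPM with DMSO in IMR5-75. In Be(2)-C it was at 5.99 and 6.39 CPM with EPZ-6438, against 0.272 and 0.275 CPM with DMSO. The EPZ-6438 libraries lay above the DMSO libraries in both lines. The change was 0.95 ± 0.20 in IMR5-75 and 4.45 ± 0.37 in Be(2)-C, a difference of −3.50 ± 0.47 (adjusted p = 0.000673 by edgeR) that held without each library.

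NEBL, the actin-binding protein nebulette, was at 7.02 and 8.73 CPM with EPZ-6438 against 9.29 and 13.5 CPM with DMSO in IMR5-75. Levels in Be(2)-C were 4.27 and 4.16 CPM with EPZ-6438 against 0.725 and 0.918 CPM with DMSO. The difference of −2.87 ± 0.46 (adjusted p = 0.00223 by edgeR) held without each library. GRB10, an imprinted adaptor of the insulin receptor, differed by −2.47 ± 0.43 (adjusted p = 0.00447) and DNAH6, an axonemal dynein, by −2.51 ± 0.47 (adjusted p = 0.00698). Both lost the call without Be(2)-C DMSO replicate 1. SPATA13, an exchange factor for small GTPases, differed by −2.70 ± 0.56 (adjusted p = 0.0147) and lost it in 3 fits, without either Be(2)-C DMSO library or IMR5-75 EPZ-6438 replicate 1.

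The calls on ALPK1, a kinase that senses bacterial sugars, and SLC19A3, a thiamine transporter, rested on few counts and were lost in every one of the 8 fits. ALPK1 had 27 counts in the Be(2)-C EPZ-6438 group against 2 with DMSO, a ratio of 13.6 (counting interval 3.41 to 118). SLC19A3 had 27 counts against 3, a ratio of 9.04 (2.78 to 46.6). Their fitted differences were −3.10 ± 0.78, which was −6.41 without Be(2)-C DMSO replicate 1, and −3.07 ± 0.77 (adjusted p = 0.0494 and 0.0484 by edgeR).

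FN1, FSTL1, FAT1 and YES1, picked after their values were seen, kept the call without each library. FN1, fibronectin, was at 153 and 163 CPM with EPZ-6438 against 175 and 143 CPM with DMSO in IMR5-75, and at 27.8 and 24.7 CPM with EPZ-6438 against 10.5 and 9.82 CPM with DMSO in Be(2)-C. Its difference was −1.38 ± 0.21 (adjusted p = 0.00168 by edgeR). FSTL1, a secreted glycoprotein related to follistatin, differed by −1.39 ± 0.20 (adjusted p = 0.000763), the giant cadherin FAT1 by −1.68 ± 0.26 (adjusted p = 0.00171) and YES1, a kinase of the SRC family, by −2.03 ± 0.30 (adjusted p = 0.00139). As lists, collagens and laminins had 1 of 45 members called, COL4A2, and mesenchymal-state genes 2 of 53, FN1 lower and HES1 higher, beside 1.28% of all tested genes. COL4A2 lost its call without Be(2)-C DMSO replicate 2 or Be(2)-C EPZ-6438 replicate 1 and kept it in the other 6 of 8 fits.

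Genes abundant in IMR5-75 and scarce in Be(2)-C differed in their counts in the Be(2)-C EPZ-6438 libraries. NEUROD1, at a mean of 161 CPM in IMR5-75, had 0 counts in the Be(2)-C EPZ-6438 group, which allows up to 0.0855% of that level, and LAMA1, at 176 CPM, had 3 counts. Others had more: MST4, at 165 CPM in IMR5-75, had 23 counts in the Be(2)-C EPZ-6438 group against 5 with DMSO, the first being 0.642% of its IMR5-75 level. NNAT had 51 counts against 40 (0.541%) and TMPRSS15 26 against 15 (0.208%). Among the 104 genes that rose in Be(2)-C with a lower difference, the smallest rise was 0.685% of the IMR5-75 level, in RAI14, and the median was 16.9%. The part of carry-over between libraries in the smallest rises was not tested.

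**Figure D3:**
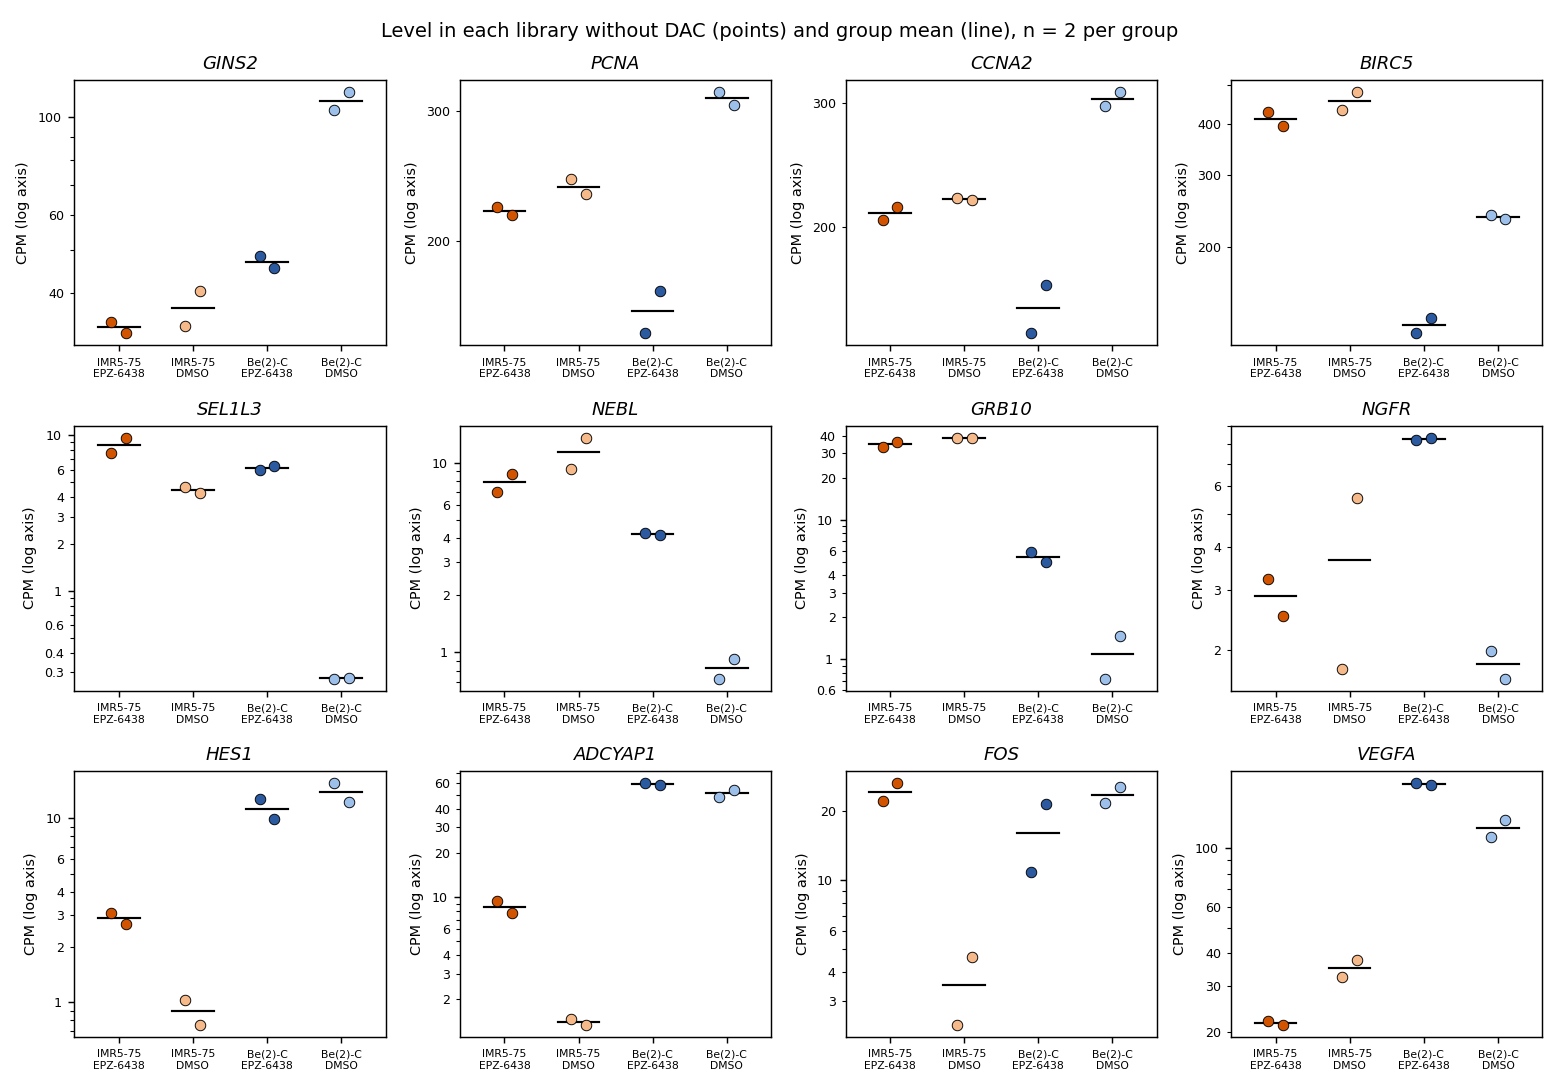
CPM on a log axis in each of the 8 libraries without DAC for 12 genes, with points for the 2 libraries of each group and a line for their mean; orange groups are IMR5-75 and blue groups Be(2)-C. In the top row the Be(2)-C EPZ-6438 points lie below the Be(2)-C DMSO points, as with GINS2 at 48.5 and 45.5 against 104 and 114 CPM, in the middle row they lie above, and in HES1, ADCYAP1 and FOS the IMR5-75 EPZ-6438 points lie above the IMR5-75 DMSO points.

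A smaller group of 38 genes rose in IMR5-75 with no call in Be(2)-C, where their median level was higher. Their median level was 19.5 CPM with EPZ-6438 and 6.98 CPM with DMSO in IMR5-75, and 89.4 CPM with EPZ-6438 and 93.3 CPM with DMSO in Be(2)-C. The DMSO libraries enter the difference, and the count in the DAC libraries is given only for all 95 higher genes together. There every Be(2)-C library lay above every IMR5-75 library at 46 of them (48.4%), against 31.8% of all tested genes.

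ADCYAP1, which encodes the neuropeptide PACAP, was at 9.38 and 7.79 CPM with EPZ-6438 against 1.47 and 1.35 CPM with DMSO in IMR5-75. The Be(2)-C libraries had 59.7 and 58.6 CPM with EPZ-6438 against 48.4 and 53.9 CPM with DMSO. IMR5-75 libraries of the 2 treatments lay far apart, while Be(2)-C libraries lay close together at a higher level. The difference of 2.38 ± 0.25 (adjusted p = 4.4e-05 by edgeR) held without each library.

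FOS, the immediate early transcription factor, was at 22.0 and 26.4 CPM with EPZ-6438 against 2.36 and 4.63 CPM with DMSO in IMR5-75. In Be(2)-C it was at 10.8 and 21.4 CPM with EPZ-6438 against 21.6 and 25.5 CPM with DMSO. The 2 lines moved to opposite sides, with only the IMR5-75 change called. The difference was 3.36 ± 0.52 (adjusted p = 0.00607 by edgeR) and held without each library. FOS was the only one of 36 immediate early genes to be called, beside 1.28% of all tested genes.

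HES1, a repressor downstream of NOTCH, differed by 1.96 ± 0.39 (adjusted p = 0.0126 by edgeR), with 3.07 and 2.68 CPM given EPZ-6438 against 1.03 and 0.757 CPM given DMSO in IMR5-75. Its call was lost without Be(2)-C DMSO replicate 1, IMR5-75 DMSO replicate 2 or IMR5-75 EPZ-6438 replicate 1. PRPH, the neuronal filament peripherin, chosen after its values were seen, differed by 1.31 ± 0.22 (adjusted p = 0.00393 by edgeR) and kept the call throughout. It was the only called member of 60 neuronal maturation genes, beside 1.28% of all tested genes.

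ID1 and ID3, helix-loop-helix inhibitors induced by BMP signals, differed alike. ID1 was at 159 and 151 CPM with EPZ-6438 against 103 and 84.8 CPM with DMSO in IMR5-75, and at 154 and 144 CPM with EPZ-6438 against 176 and 184 CPM with DMSO in Be(2)-C. ID1 differed by 1.00 ± 0.19 (adjusted p = 0.00704 by edgeR) and ID3 by 1.00 ± 0.19 (adjusted p = 0.00948). ID1 lost the call without Be(2)-C DMSO replicate 2 and ID3 in 3 of the 8 fits. In the list of BMP and TGF-beta genes, 2 of 50 were called higher, these, and 2 lower, INHBE and TGFB1, with a median of −0.04. Of all tested genes 0.595% were called higher and 0.689% lower.

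Other genes with high differences stood at low levels in IMR5-75. MAP7, a microtubule-binding protein, differed by 2.50 ± 0.45 (adjusted p = 0.00572 by edgeR), with 2.37 and 1.18 CPM given EPZ-6438 against 0.295 and 0.421 CPM given DMSO in IMR5-75, and lost the call without IMR5-75 EPZ-6438 replicate 1. THSD7A, a membrane protein with thrombospondin repeats, differed by 1.43 ± 0.26 (adjusted p = 0.00593) and lost it without IMR5-75 DMSO replicate 2. ASPDH, a putative aspartate dehydrogenase, differed by 2.52 ± 0.56 and TRPA1, an irritant-gated cation channel that fell in Be(2)-C, by 1.74 ± 0.35 (adjusted p = 0.0243 and 0.0138); they kept the call in 3 and 4 of the 8 fits.

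Calls on DKK1, a WNT inhibitor, MTHFD2L, a mitochondrial folate enzyme, and PTGER2, a prostaglandin E2 receptor, leaned on the IMR5-75 DMSO libraries. DKK1 was at 3.02 and 0.841 CPM there, and its difference of 1.55 ± 0.38 was 2.83 without the first and 0.96 without the second. MTHFD2L, at 1.74 ± 0.43, was 3.11 without the first and 1.12 without the second. PTGER2, at 1.61 ± 0.36, was 2.60 without the first. Of the 8 fits, DKK1 and MTHFD2L kept the call in 1 each and PTGER2 in 3.

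HIST1H1B, linker histone H1.5, fell in Be(2)-C (609 and 507 CPM with EPZ-6438, 1244 and 1182 CPM with DMSO) and had 16 counts in the IMR5-75 EPZ-6438 group against 1 in the DMSO group, a ratio of 16 (counting interval 2.49 to 672). Its fitted difference of 4.81 ± 1.06 (adjusted p = 0.0229 by edgeR) kept the call in 4 of the 8 fits. Its gain in IMR5-75 was 0.106% of the Be(2)-C level, where the smallest among the 38 genes that rose in IMR5-75 was 1.38%, in MTUS1.

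INHBE and HMOX1, genes of amino acid stress and oxidative defence, rose in Be(2)-C and stood lower with EPZ-6438 than with DMSO in IMR5-75. In the list of ATF4 and unfolded protein response genes, which respond to amino acid shortage and misfolded proteins, 4 of 44 were called lower and 0 higher, against 0.689% of all genes called lower. The median difference was −0.38, and 42 of 44 members were below 0. Of its members 0 rose and 3 fell in IMR5-75, where 1.73% of all tested genes rose and 0.37% fell. In Be(2)-C 10 rose and 1 fell, where 5.44% of all tested genes rose and 4.85% fell. With 1 library left out, 7 members were called without Be(2)-C EPZ-6438 replicate 2, 2 without Be(2)-C EPZ-6438 replicate 1 or IMR5-75 DMSO replicate 1, and 1 without any of the other libraries. The median stayed between −0.52 and −0.31.

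INHBE, the beta E subunit of the activins, was at 21.5 and 19.9 CPM with EPZ-6438 against 25.3 and 36.7 CPM with DMSO in IMR5-75. Levels in Be(2)-C were 15.9 and 16.7 CPM with EPZ-6438 against 3.35 and 4.04 CPM with DMSO. EPZ-6438 libraries lay below DMSO libraries in IMR5-75, without a call, and above them in Be(2)-C. The difference was −2.72 ± 0.37 (adjusted p = 0.000673 by edgeR) and held without each library.

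HMOX1, the heme-degrading enzyme induced by NRF2, was at 8.04 and 7.87 CPM with EPZ-6438 against 13.0 and 12.2 CPM with DMSO in IMR5-75. The Be(2)-C libraries had 37.9 and 29.2 CPM with EPZ-6438 against 5.80 and 8.91 CPM with DMSO. Its difference of −2.86 ± 0.43 (adjusted p = 0.00246 by edgeR) held without each library. HMOX1 was the only called member of 27 NRF2 targets, beside 1.28% of all tested genes. VLDLR, a lipoprotein receptor induced by ATF4, differed by −1.08 ± 0.23 (adjusted p = 0.02) and kept the call in 2 of the 8 fits. SLC7A5, an amino acid transporter, fell in IMR5-75 and differed by −1.08 ± 0.24 (adjusted p = 0.0232), a value that was −0.70, with no call, without Be(2)-C EPZ-6438 replicate 1.

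Of 37 tested genes of glycolysis and hypoxia, 13 fell and 0 rose in IMR5-75, where 0.37% of all tested genes fell and 1.73% rose. In Be(2)-C 4 rose and 5 fell, where 5.44% of all tested genes rose and 4.85% fell. In IMR5-75 11 of the 37 had a change above 0. In the difference 4 were called lower, against 0.689% of all genes, and 0 higher, with a median of −0.16. With 1 library left out, 4 members were called without Be(2)-C EPZ-6438 replicate 2, 3 without IMR5-75 DMSO replicate 1 and 2 without any of the others.

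VEGFA, the angiogenic factor induced by hypoxia, was at 22.0 and 21.4 CPM with EPZ-6438 against 32.4 and 37.8 CPM with DMSO in IMR5-75. Be(2)-C cells had 177 and 174 CPM with EPZ-6438 against 110 and 129 CPM with DMSO. The groups lay apart in each line, in opposite directions. The difference was −1.25 ± 0.17 (adjusted p = 0.000745 by edgeR), and it held without each library.

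PFKFB3, which drives glycolysis, was at 53.5 and 46.7 CPM with EPZ-6438 against 73.3 and 82.3 CPM with DMSO in IMR5-75. In Be(2)-C it was at 24.8 and 21.8 CPM with EPZ-6438 against 16.9 and 16.3 CPM with DMSO. The difference of −1.12 ± 0.19 (adjusted p = 0.00281 by edgeR) held without each library. HK2, hexokinase, fell in IMR5-75 (201 and 191 CPM with EPZ-6438, 304 and 318 CPM with DMSO) and differed by −0.72 ± 0.16 (adjusted p = 0.0278), a call kept in 1 of the 8 fits.

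In 18 of the 42 lists examined edgeR called no member, where 1.28% of all tested genes were called. Of their 524 genes, 73 (13.9%) had an unadjusted p under 0.05, against 11.6% of all tested genes. The DESeq2 Wald test called 4: DNMT3A, FDFT1, JARID2 and PHF19. The 18 lists included the HOX genes (18 tested), 96 developmental transcription factors, 34 interferon-stimulated genes and 52 clustered protocadherins. They also included 23 cancer-testis genes, 34 germline genes, 76 ribosomal proteins and 34 genes of cholesterol and fatty acid synthesis. Of the 205 called genes, 51 were on a list and 154 on none. For the developmental factors 6 rose and 2 fell in IMR5-75, and 2 rose and 4 fell in Be(2)-C. Cholesterol genes fell in Be(2)-C at 10 of 34 and rose in IMR5-75 at 1. Their median difference was 0.27, with 13 members higher at an unadjusted p under 0.05. Of all tested genes 1.73% rose and 0.37% fell in IMR5-75, and 5.44% rose and 4.85% fell in Be(2)-C.

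The same difference was measured again in the 8 DAC libraries, as DAC plus EPZ-6438 over DAC in IMR5-75 minus the same in Be(2)-C; the 2 measurements share no library. With DAC, 87 genes (0.545%) were called, 32 higher (0.2%) and 55 lower (0.344%). Of the 205 genes called without DAC, 171 had the same sign with DAC (83.4%), against 54.9% of all tested genes. With DAC, 25 of them were called with the same sign and 3, HMOX1, INHBE and ULBP1, with the opposite sign. Of these 28 calls, 9 held in each fit that left out 1 DAC library. The opposite call on HMOX1 held in 2 of these 8 fits, that on ULBP1 in 5 and that on INHBE in 7. The number called with DAC was 31 to 71, the fewest without Be(2)-C DAC replicate 2; it was 33 without either Be(2)-C library given both agents, 48 and 46 without the first and second IMR5-75 library given both agents, and 56 without IMR5-75 DAC replicate 1. The median difference over the lower genes was −0.65 with DAC and −1.45 without, and over the higher genes 0.25 with DAC and 0.94 without.

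F2R and SLC25A24 differed by −3.88 ± 0.54 and −2.87 ± 0.43 with DAC (adjusted p = 0.000617 and 0.00142 by edgeR). F2R was at 63.8 and 57.6 CPM with both agents against 63.1 and 67.6 CPM with DAC in IMR5-75. Levels in Be(2)-C were 2.23 and 1.57 CPM with both agents against 0.0823 and 0.185 CPM with DAC. The last 2 values lie under the floor of 3 counts, which is 0.247 and 0.271 CPM in those libraries. The size of the F2R difference with DAC thus rests on few counts, as it does without DAC. The IMR5-75 groups overlapped and the Be(2)-C groups lay apart, as without DAC.

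FN1, FSTL1, COL4A2 and ADAMTS2, a procollagen protease, kept their call with DAC in each fit, at −1.64 ± 0.19, −1.56 ± 0.19, −2.28 ± 0.31 and −2.05 ± 0.26. REST, the repressor of neuronal genes, differed by −1.59 ± 0.27 with DAC (adjusted p = 0.00536 by edgeR), a call lost without Be(2)-C DAC replicate 1, and by −1.80 ± 0.33 without DAC (adjusted p = 0.00673), a call lost without either Be(2)-C DMSO library. None of the 52 higher genes that fell in Be(2)-C without DAC was called with DAC. Of all tested genes 0.545% were called with DAC, so the lack of a call says little about these 52. The sign was the same with DAC at 44 of them, against 54.9% of all tested genes. Their median difference was 0.23 with DAC and 0.80 without.

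The lists that stood apart without DAC were also read with DAC, as descriptions. The mitosis list had a median difference of −0.11 with DAC, with 21 of 62 members above 0 and 0 called, against 0.52 and 61 of 62 without DAC. The replication list had a median of 0.23 with DAC, with 46 of 61 members above 0 and 0 called, against 0.47 and 58 of 61 without. The ATF4 and unfolded protein response list had a median of 0.31 with DAC, with 37 of 44 members above 0, 3 called higher and 0 lower, against −0.38 and 2 of 44 above 0 without. The core histones had a median of 0.22 with 4 of 57 called higher, against 0.71 and 1 called without DAC. Of all tested genes 0.2% were called higher and 0.344% lower with DAC. For mitosis and ATF4 genes the sign of the median thus differed between the libraries with and without DAC, a difference not tested for the lists. The list medians with DAC are given without their range over fits that left out 1 library.

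**Figure D4:**
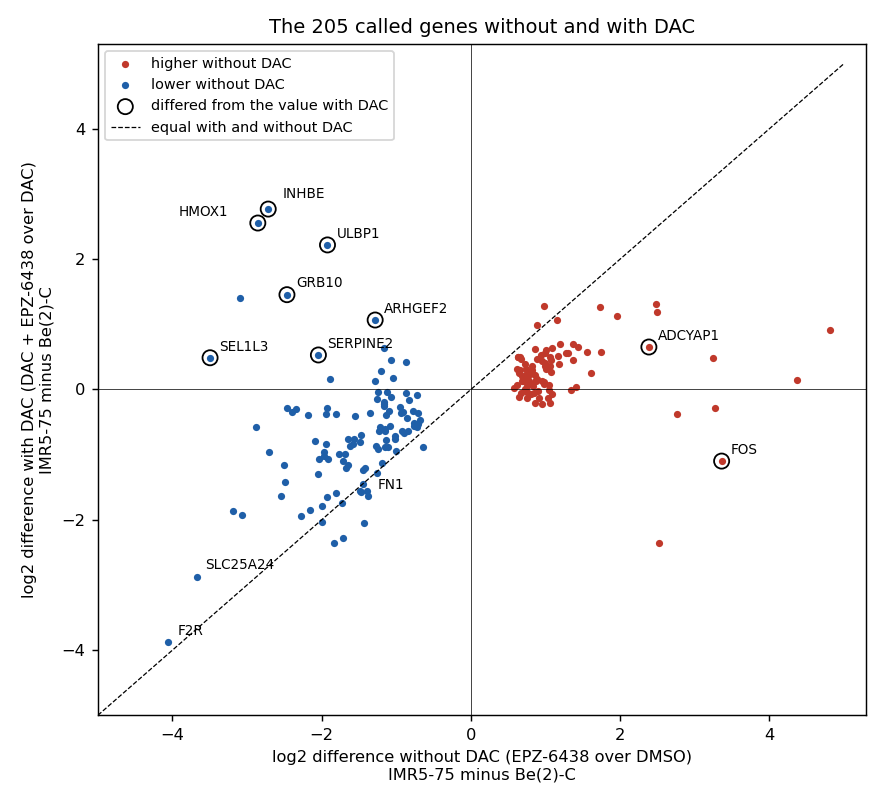
Log2 difference of the EPZ-6438 responses with DAC (vertical axis) against that without DAC (horizontal axis) for the 205 called genes, red where higher and blue where lower without DAC; circles mark genes whose 2 differences differed by edgeR. Of the 205, 171 keep their sign; F2R and SLC25A24 lie near the line of equal values, and INHBE, HMOX1 and ULBP1 lie on the opposite side.

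The line difference itself depended on DAC at 16 genes (0.1%), 2 higher without DAC (0.0125%) and 14 lower (0.0877%); 9 of them were among the 205. At an unadjusted p under 0.05 there were 980 (6.14%). The calls on INHBE, HMOX1, GRB10, SERPINE2, ULBP1, ATF5 and LRP1B held in each of 16 fits that left out 1 library. In those fits 8 to 46 genes were called: 46 without Be(2)-C EPZ-6438 replicate 2, 27 without Be(2)-C DAC replicate 1, 10 without Be(2)-C DAC replicate 2, IMR5-75 EPZ-6438 replicate 2 or the first IMR5-75 library given both agents, 9 without IMR5-75 EPZ-6438 replicate 1, and 8 without the first Be(2)-C library given both agents.

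INHBE was at 15.1 and 18.3 CPM with both agents against 17.8 and 17.5 CPM with DAC in IMR5-75, and at 1.34 and 1.57 CPM with both agents against 6.50 and 14.6 CPM with DAC in Be(2)-C. It thus stood lower in Be(2)-C with EPZ-6438 than without it among the DAC libraries, and higher among the libraries without DAC. The difference with DAC was 2.77 ± 0.44, and the value without DAC minus that with DAC was −5.48 ± 0.57 (adjusted p = 4.02e-05 by edgeR). HMOX1 showed the same order, with 2.49 and 1.57 CPM given both agents against 6.17 and 16.1 CPM given DAC in Be(2)-C, and a value of −5.41 ± 0.66 (adjusted p = 0.000793). The 2 Be(2)-C DAC libraries differed widely from each other at both genes, replicate 2 being the higher.

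GRB10 gave −3.92 ± 0.61 (adjusted p = 0.00504 by edgeR) and ULBP1, a ligand of the NK cell receptor NKG2D, −4.14 ± 0.61 (adjusted p = 0.00311). SERPINE2, an inhibitor of serine proteases, gave −2.57 ± 0.33 (adjusted p = 0.000761) and SEL1L3 −3.98 ± 0.64 (adjusted p = 0.00668), which lost the call without Be(2)-C DAC replicate 2. SEL1L3 was at 1.16 and 1.36 CPM in Be(2)-C with both agents and 0.905 and 1.67 CPM with DAC, so these groups overlapped. ATF5, a stress-induced relative of ATF4, gave −2.71 ± 0.44 and LRP1B, a giant receptor of the lipoprotein receptor family, −3.47 ± 0.57 (adjusted p = 0.00668 each by edgeR). At each of these genes replicate 2 was again the higher of the Be(2)-C DAC libraries. Replicates 1 and 2 were at 2.47 and 5.93 CPM for GRB10, 2.14 and 4.45 CPM for ULBP1, and 22.4 and 30.9 CPM for ATF5.

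Higher without DAC were FOS, at 4.46 ± 0.69, and ADCYAP1, at 1.73 ± 0.31 (adjusted p = 0.0201 each by edgeR). FOS was at 12.5 and 18.1 CPM with both agents against 28.5 and 45.4 CPM with DAC in IMR5-75, and at 30.2 and 28.2 CPM with both agents against 25.3 and 40.6 CPM with DAC in Be(2)-C. ADCYAP1 was at 30.4 and 33.5 CPM with both agents against 17.2 and 15.8 CPM with DAC in IMR5-75. FOS kept this call in 7 of 16 fits and ADCYAP1 in 8.

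**Figure D5:**
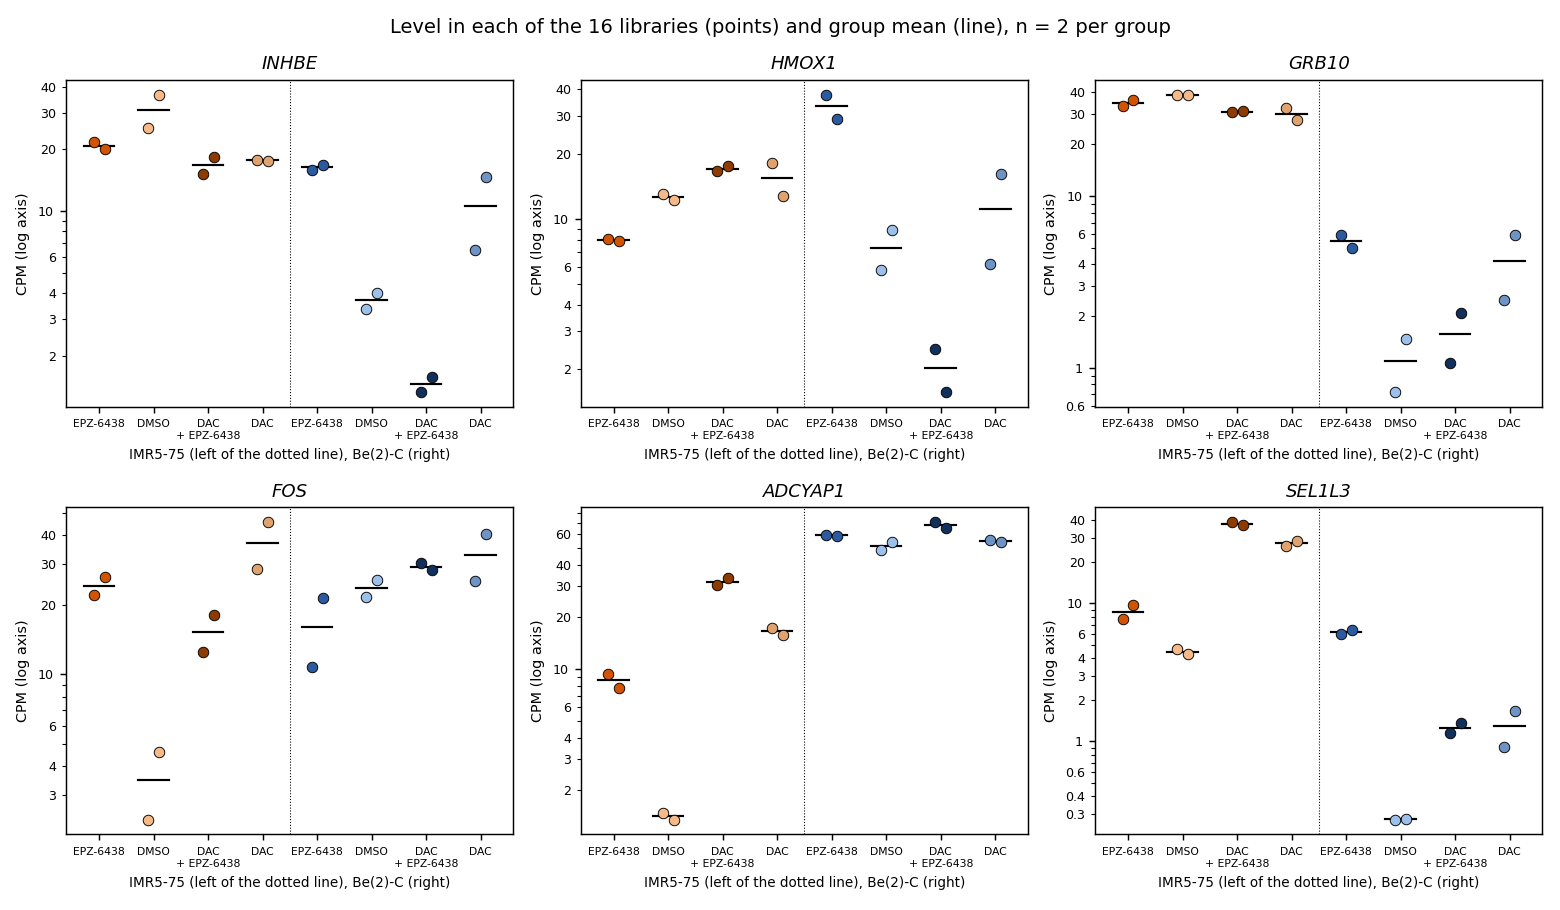
CPM on a log axis in all 16 libraries for 6 genes whose line difference depended on DAC; points are the 2 libraries of a group, the line is their mean, and the dotted line parts IMR5-75 (left) and Be(2)-C (right). INHBE and HMOX1 are higher with EPZ-6438 than with DMSO in Be(2)-C and lower with DAC plus EPZ-6438 than with DAC, where INHBE stood at 1.34 and 1.57 against 6.50 and 14.6 CPM.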

How the data were processed

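Gene counts of 16 strand-specific, rRNA-depleted, single-end RNA libraries were analysed as the authors deposited them. Per the submitters' processing notes TopHat2 2.0.5, HTSeq 0.5.3p9, DESeq2 and build hg19 were used; neither the annotation nor the strand setting is given in the sources used here. Totals were 9539557 to 14032155 counts per library. Genes passing edgeR's filterByExpr were fitted with edgeR 4.0.16 (R 4.3.3, limma 3.58.1) as 8 groups of 2 libraries with TMM scaling and the robust quasi-likelihood test, leaving 8 residual degrees of freedom. Calls use a Benjamini-Hochberg adjusted p under 0.05 over all 15967 tested genes. Log2 values are given ± SE, and intervals and floors cover counting error only where they rest on counts. The script was tested on simulated counts.

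Alternatives were DESeq2 size factors, the DESeq2 1.42.0 Wald test, no filter, the contrast's groups alone, a replicate block and leaving out each library. Named genes were the 12 largest called differences in each direction whose log2 CPM averaged 1 or more, the 3 called genes of smallest adjusted p in each of 5 lists with at least 3 called, and PRC2 genes, MYCN, CDKN1A and the suppressor list. Genes outside this rule were chosen after their values were seen. The members and the 42 gene lists were chosen with earlier results of these data known. Of all tested genes 75.2% matched a RefSeq promoter, under 80%, so promoters were not compared between the groups of called genes; motif counts are given only for the called replication and mitosis genes, beside the shares in the whole table, without a test. Some genes that the naming rule covers are not reported here.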

Additional observations from a re-analysis of the deposited data

Results flagged for a closer look

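The EPZ-6438 response of these named genes differed between IMR5-75 and Be(2)-C by the test of the difference itself. The values compare signed responses, not levels, so a fall in Be(2)-C raises them and a rise in Be(2)-C lowers them. The response was higher in IMR5-75 for HIST1H1B by 4.81, FOS by 3.36 and ASPDH by 2.52 on the log2 scale. For MAP7 it was higher by 2.50, for ADCYAP1 by 2.38 and for HES1 by 1.96. TRPA1 and MTHFD2L were higher by 1.74 each, PTGER2 by 1.61, DKK1 by 1.55, THSD7A by 1.43, and ID1 and ID3 by 1.00 each. The cell-cycle genes GINS2, CCNA2, PCNA, NUSAP1, LIG1 and BIRC5 were higher by 1.06, 0.92, 0.85, 0.84, 0.82 and 0.74. All of these cell-cycle genes fell in Be(2)-C, with no call in IMR5-75.

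The response, not the level, was lower in IMR5-75 for F2R at −4.06, SLC25A24 at −3.68, SEL1L3 at −3.50 and ALPK1 at −3.10. SLC19A3 followed at −3.07, NEBL at −2.87 and HMOX1 at −2.86. INHBE stood at −2.72, SPATA13 at −2.70, DNAH6 at −2.51, NGFR at −2.49 and GRB10 at −2.47. VEGFA stood at −1.25, PFKFB3 at −1.12, VLDLR and SLC7A5 at −1.08 each and HK2 at −0.72.

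For 6 genes of the naming rule, among 16 called over all genes, the line difference itself differed between libraries without and with DAC. The value without DAC minus that with DAC was 4.46 for FOS, 1.73 for ADCYAP1, −5.48 for INHBE, −5.41 for HMOX1, −3.98 for SEL1L3 and −3.92 for GRB10.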

How the results depend on the processing

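The 205 called differences kept their sign under every alternative run, and 185 to 203 kept the call under DESeq2 size factors, the DESeq2 Wald test, no low-count filter or the contrast's groups alone. Without the filter 376 differences were called, 642 in IMR5-75, 185 with DAC and 59 between the differences without and with DAC. The Wald test called 134 with DAC and 34 between the differences. Leaving out 1 library gave 56 to 222 called differences, 33 to 359 in IMR5-75, 573 to 1246 in Be(2)-C, 31 to 71 with DAC and 8 to 46 between the differences; the cause was not tested beyond the smaller number of samples.

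Replicate numbers 1 and 2 are shared by the groups, and no label says that a number marks a shared culture or day. Same-numbered libraries of EPZ-6438 and DMSO deviated together with r = 0.105 in IMR5-75 and 0.0156 in Be(2)-C. With the replicate number as a block, 99 differences were called, 192 in IMR5-75, 1165 in Be(2)-C, 47 with DAC and 11 between the differences.

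SUZ12 turned to 0.013 in the fit of the contrast's groups alone and ranged from −0.099 to 0.078 with 1 library left out. MYCN ranged from −0.18 to 0.37 and CASZ1 from −0.23 to 0.68, both negative without Be(2)-C EPZ-6438 replicate 2. Over the named genes, leaving out 1 library ended 100 calls of single fits and the other alternatives 17. CDKN1A was called without the filter (0.75) and CLU without IMR5-75 DMSO replicate 1 (0.98). With 2 libraries a group and common variation of 9.88%, genes of a few counts, such as ALPK1 and SLC19A3, are limited by depth.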
